A study of Mus musculus with 16 samples.

Results

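The CCN genes Ccn1, Ccn2, Ccn3, Ccn4 and Ccn5 were followed in 2 kidney preparations, glomeruli and cortex, from control and diabetic mice. The members were chosen by name, with the older symbols Cyr61, Ctgf, Nov, Wisp1 and Wisp2 counted as the same genes. All 5 were found among the 24722 genes of the glomerular table and the 34264 of the cortex table, and the rule itself uses names only. The mice were wild type and 24 weeks old. The diabetic mice carried the HFD/STZ model, in which a high-fat diet is combined with streptozotocin, a toxin of insulin-producing beta cells, so that diet, toxin and the diabetic state cannot be told apart. There were 16 libraries, 4 for each pairing of tissue and condition, and the strain, sex and pooling of the animals are not given in the labels.

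Total counts per library were 36339294 to 41876031 in glomeruli and 57473100 to 72352656 in cortex. In glomeruli, control libraries 3 and 4 (chi-square per gene 2.39, against 35.0 to 64.4 for the other control pairs) and diabetic libraries 1 and 4 (5.36 against 50.4 to 74.0) were much closer than other replicates. Each pair was summed and counted as 1 sample, so glomerular groups have n = 3 and cortex groups n = 4. Whether each library is a different animal is not stated in the labels. The p-values therefore rest on a spread among libraries that could be purely technical. The podocyte genes fixed as a list had a summed level of 4777 to 5939 CPM in control glomeruli and 397 to 435 CPM in control cortex. Proximal tubule markers summed to 34.5 to 42.1 CPM in control glomeruli, whereas diabetic samples 1+4, 2 and 3 stood at 718, 58.8 and 351 CPM. CPM are counts relative to the TMM-scaled library size, and log2 fold changes are diabetic against control, given ± SE.

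CCN proteins are secreted into the matrix around cells. They are built of modules that resemble parts of insulin-like growth factor binding proteins, von Willebrand factor, thrombospondin and cysteine-knot growth factors, and CCN5 lacks the last of these. They bind integrins, heparan sulfate proteoglycans and growth factors and so alter adhesion, migration and matrix production. CCN1 and CCN2 are classic targets of the co-activators YAP and TAZ, which act through TEAD factors, and CCN1 is also an immediate early gene. CCN2, or connective tissue growth factor, is best known in the kidney for its links to mesangial matrix and fibrosis, and CCN3 is described as opposing it.

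The start region of Ccn1 is shown because Ccn1 was called in opposite directions in the 2 tissues. RefSeq promoter entries (build GRCm38.p6) matched 1 of the 5 members, Ccn1, and did not match Ccn2, Ccn3, Ccn4 or Ccn5. The 250 bases before the RefSeq start site of Ccn1 lie at chr3:145649986-145650235 on the minus strand and are printed 5′ to 3′ with 3 short matches in capitals.
Ccn1 promoter: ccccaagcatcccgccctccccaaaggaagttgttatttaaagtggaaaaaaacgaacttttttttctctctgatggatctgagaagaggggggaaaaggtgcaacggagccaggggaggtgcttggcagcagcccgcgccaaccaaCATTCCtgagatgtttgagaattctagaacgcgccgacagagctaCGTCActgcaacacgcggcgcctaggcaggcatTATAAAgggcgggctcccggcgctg
The first match is the TEAD motif GGAATG on the opposite strand, 103 to 98 bases before the start. Of 32851 promoter windows of the same length, 12.6% held GGAATG on either strand. The second is the core TGACG of the cyclic AMP response element on the opposite strand, 58 to 54 bases before the start, which 17.8% of windows held. The third is TATAAA, 25 to 20 bases before the start, held by 12.4%. The AP-1 motif TGANTCA (6.75% of windows) and the CArG box of serum response factor (1.47%) were also searched on both strands, and these letters were not in this window. The 3 matches did not overlap one another, and a match is only a match of letters.

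On GRCm38 with GENCODE release M21, Ccn1 is on chromosome 3 (145646976 to 145649981, minus strand) and Ccn2 on chromosome 10 (24595442 to 24598683, plus strand). Ccn3 (54745702 to 54754039) and Ccn4 (66891320 to 66923201) are both on the plus strand of chromosome 15, and Ccn5 is on chromosome 2 (163820861 to 163833146, plus strand). All are protein coding, and the longest coding transcript has 5 exons except that of Ccn2, which has 4. The antisense transcript Gm15270 overlaps Ccn2 on the opposite strand. Its count was 0.0289 to 0.0557% of the Ccn2 count in glomerular libraries and 0.329 to 0.700% in cortex. No other annotated gene overlaps a member. Whether counting used strand is not given in the sources used here.

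Levels between members can be compared only per gene length, for which the authors' FPKM serve. In control glomeruli the order was Ccn2, Ccn1, Ccn4, Ccn5 and Ccn3. Ccn2 had 3064 to 3416 FPKM in the 4 libraries, the 9th highest mean of all 24722 genes. Ccn1 had 707 to 753 FPKM (rank 35) and Ccn4 96.0 to 124 FPKM (rank 501). Ccn5 had 0.436 to 1.07 FPKM and Ccn3 0.0516 to 0.304 FPKM, so these neighbours in the order also did not overlap. The first 3 were thus among the abundant transcripts of these preparations and the other two close to the detection limit.

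In control cortex Ccn2 again came first, at 28.1 to 48.9 FPKM (rank 994 of 34264), followed by Ccn1 at 10.3 to 15.1 FPKM (rank 3166). Ccn4 was at 0.432 to 0.677 FPKM and Ccn3 at 0.0184 to 0.130 FPKM, while Ccn5 was listed at 0 in all 4 control libraries. In diabetic cortex Ccn1 had the highest mean (39.4 FPKM, range 28.5 to 53.4) and Ccn2 the next (29.9 FPKM, range 28.1 to 32.5). The ranges over libraries overlapped, but within each of the 4 libraries Ccn1 was above Ccn2, by the least in library 1 (28.5 against 28.1 FPKM).

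Ccn1, which encodes the integrin ligand CYR61, fell in diabetic glomeruli and rose in diabetic cortex. In glomeruli its level was 1637, 1617 and 1524 CPM in control samples 1, 2 and 3+4 and 877, 1061 and 794 CPM in diabetic samples 1+4, 2 and 3. Every diabetic sample lay below every control sample, with means of 1593 ± 60.3 and 911 ± 136 CPM (SD, n = 3 each). Groups did not overlap, in either direction, for 54.2% of all genes tested in glomeruli. The log2 fold change was -0.81 ± 0.13 (edgeR adjusted p = 0.00462), 1.75-fold lower. With diabetic sample 2 as the only diabetic sample, assumed to vary like the controls, the value was -0.56 and the call was lost (edgeR adjusted p = 0.0511). Sample 2 had the lowest tubule marker levels of the diabetic samples (58.8 CPM proximal and 421 CPM distal), both above every control. In the full comparison 7 of 9 proximal tubule markers and 8 of 9 tested distal nephron markers (75.1 to 92.8 CPM in controls, 421 to 2280 CPM in diabetic samples) were higher, and their part in the CCN values was not tested.

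In cortex Ccn1 stood at 28.8, 27.7, 23.0 and 31.5 CPM in control libraries 1 to 4 and at 63.9, 73.7, 111 and 89.5 CPM in diabetic libraries 1 to 4. The lowest diabetic library had about 2 times the level of the highest control library. Groups did not overlap, in either direction, for 24.9% of all genes tested in cortex. Means were 27.7 ± 3.52 and 84.4 ± 20.5 CPM (SD, n = 4 each), and the log2 fold change was 1.61 ± 0.17 (edgeR adjusted p = 0.000725), 3.04-fold higher. The call was kept in all 14 alternatives, with values of 1.45 to 1.72. Myeloid markers were also higher in diabetic cortex (9 of 10 called, summed level 222 to 386 CPM in controls and 542 to 833 CPM in diabetic libraries). Of 9 proximal tubule markers 6 were lower. Their sums were 12714, 13206, 12628 and 8199 CPM in control libraries 1 to 4 and 7766 to 9682 CPM in diabetic libraries. Control library 4 thus lay within the diabetic range. Its chi-square per gene against the other cortex controls was 62.6 to 77.3, against 15.3 to 23.2 among those. The part of the myeloid and tubule markers in the rise of Ccn1 was not tested. In bulk tissue, fewer cells of a type and less RNA per cell cannot be told apart.

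Ccn2, which encodes connective tissue growth factor, was lower in diabetic glomeruli. Its level was 8964, 7792 and 7906 CPM in the control samples and 3162, 3681 and 3781 CPM in the diabetic samples. The groups did not overlap, as for 54.2% of all genes tested in glomeruli. Their means were 8221 ± 646 and 3541 ± 332 CPM (SD, n = 3 each), a 2.32-fold decrease (log2 -1.22 ± 0.14, edgeR adjusted p = 0.00137). In all 14 alternatives it was called lower, with values of -1.26 to -1.03.

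In cortex, Ccn2 was at 144, 92.5, 110 and 145 CPM in control libraries 1 to 4 and at 89.1, 91.0, 95.6 and 88.4 CPM in diabetic libraries 1 to 4. The diabetic libraries were nearly alike, and control library 2 fell within their range. The means of 123 ± 25.8 and 91.0 ± 3.23 CPM (SD, n = 4 each) gave a log2 fold change of -0.43 ± 0.13 (edgeR adjusted p = 0.0433). This call is fragile. It was lost in 12 of 14 alternatives, among them those without control library 1, 3 or 4 or any 1 diabetic library (-0.48 to -0.35, edgeR adjusted p = 0.0501 to 0.110), although every value was below 0.

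**Figure D1:**
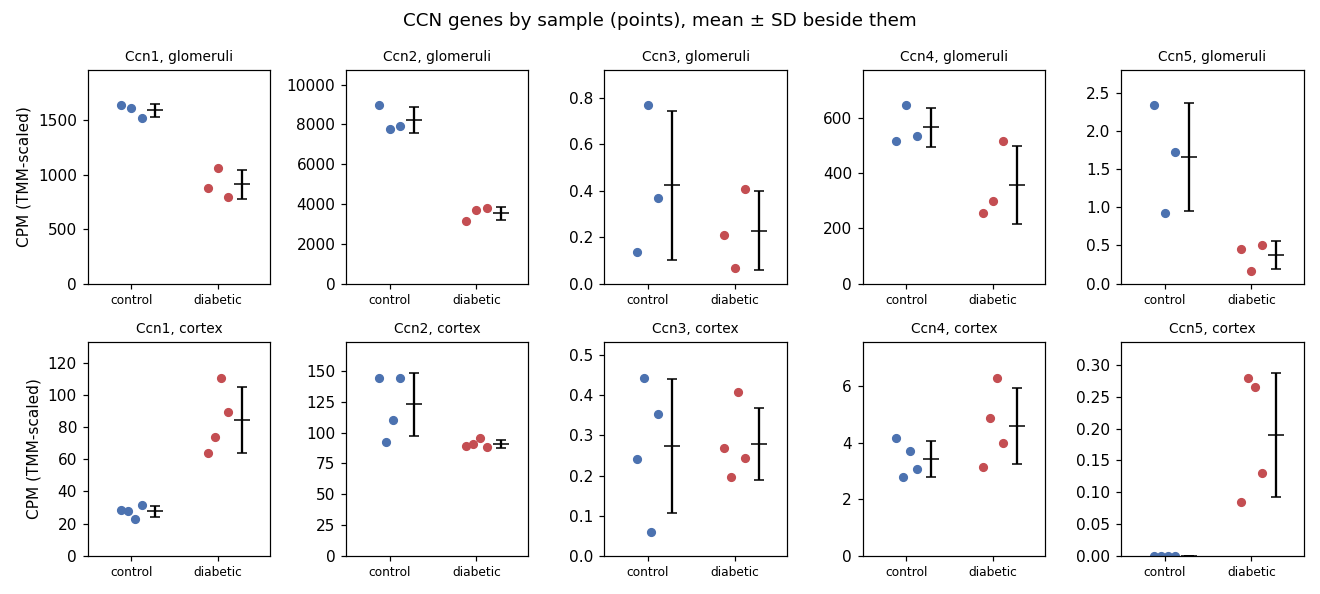
CPM of each CCN gene (vertical axes from 0, scaled per panel) in control (blue) and diabetic (red) samples of glomeruli (upper row, n = 3 per group) and cortex (lower row, n = 4 per group). Points are samples and the bar beside them is the mean ± SD. Ccn1 is lower in diabetic glomeruli (794 to 1061 CPM) and higher in diabetic cortex (63.9 to 111 CPM), and Ccn5 is at 0 in the 4 control cortex libraries.

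Ccn4, which encodes WISP1, a secreted target of Wnt signalling, went from 565 ± 69.9 to 356 ± 141 CPM in glomeruli (SD, n = 3 each) and did not pass the test (log2 -0.67 ± 0.27, edgeR adjusted p = 0.0956). The controls were at 517, 645 and 534 CPM and diabetic samples 1+4, 2 and 3 at 254, 298 and 517 CPM. Diabetic sample 3 was just below the lowest control sample (516.7 against 516.9 CPM), while diabetic samples 1+4 and 2 were well below it. Without diabetic sample 3 the value was -1.01 and passed (edgeR adjusted p = 0.00568). It also passed with DESeq2 (-0.67, adjusted p = 0.0336) and with the 8 libraries kept separate (-0.75, edgeR adjusted p = 0.0217). In cortex Ccn4 was low, at 2.78 to 4.15 CPM in control and 3.14 to 6.29 CPM in diabetic libraries, with overlapping groups (0.42 ± 0.23, edgeR adjusted p = 0.233).

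Ccn5, which encodes WISP2, the member without the cysteine-knot module, was scarce in both tissues. Its glomerular level was 2.34, 0.926 and 1.73 CPM in control samples and 0.453, 0.160 and 0.500 CPM in diabetic samples, from 258 and 65 counts in all. The groups did not overlap, as for 54.2% of all genes tested in glomeruli. The log2 fold change was -2.15 ± 0.53 (edgeR adjusted p = 0.0198), 4.43-fold lower. Ccn5 passed the filter on low counts through the control samples, where it is high, and diabetic sample 2 had 7 counts. In the fit without that filter the value was -2.18 (edgeR adjusted p = 0.0145). The call was lost without control sample 1 (-1.84), control sample 3+4 (-2.13) or diabetic sample 1+4 (-2.30), with edgeR adjusted p = 0.0573 to 0.0665. It was also lost with diabetic sample 2 alone (-3.33, edgeR adjusted p = 0.0585).

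In cortex, Ccn5 had no count in any of the 4 control libraries and 6, 20, 17 and 8 counts in diabetic libraries 1 to 4 (0.0850, 0.280, 0.266 and 0.130 CPM). Taking 3 counts in the 4 control libraries together as the floor, diabetic cortex was at least 16.0-fold higher. Floors cover counting error only. The gene did not pass the filter on low counts in cortex. In the fit without that filter it was called higher (edgeR adjusted p = 0.0151). Groups did not overlap for 24.9% of all genes tested in cortex. Ccn5 was lower in diabetic samples in glomeruli and in control samples in cortex, at counts near the detection limit. It passed the filter through the control samples in glomeruli and did not pass it in cortex. No difference between the tissues is therefore read from these values.

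Ccn3, which encodes NOV, was near the detection limit throughout, with 3 to 29 counts in a glomerular library and 4 to 26 in a cortex library. In glomeruli it was at 0.134, 0.767 and 0.369 CPM in control and 0.208, 0.0685 and 0.405 CPM in diabetic samples (log2 -0.90 ± 0.77, edgeR adjusted p = 0.393). In cortex the means were 0.274 ± 0.166 and 0.279 ± 0.0906 CPM (SD, n = 4 each; 0.03 ± 0.58, edgeR adjusted p = 0.980). The spread of the controls covered nearly all diabetic values. The 95% intervals, -2.40 to 0.61 in glomeruli and -1.11 to 1.17 in cortex, allow changes of more than 2-fold. No difference was thus found, and a change of that size is not excluded.

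Across the family, 3 of the 5 members tested in glomeruli were called lower (Ccn1, Ccn2 and Ccn5), and each of the 5 estimates was below 0. Of these, Ccn5 passed the filter on low counts through its control samples. Of all genes tested there, 18.2% were called lower, 19.4% were called higher, and groups did not overlap for 54.2%. In cortex 4 members were tested, of which 1 was called higher (Ccn1) and 1 lower (Ccn2), against 20.1% of all genes called in either direction, 10.8% higher and 9.29% lower, and 24.9% with groups that did not overlap. Over all genes the median change (log2) was 0.01 in glomeruli and -0.00 in cortex. Library totals in place of TMM moved it by 0.19 in glomeruli, and no member reversed its direction with a call under any alternative.

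**Figure D2:**
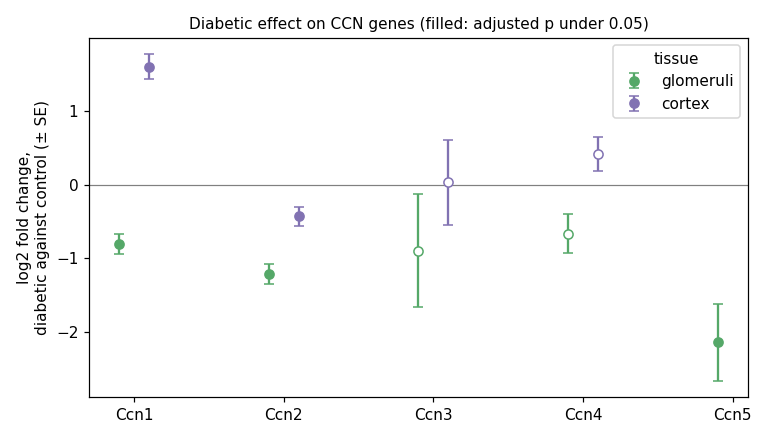
Log2 fold change of diabetic against control samples (vertical axis, ± SE) of each CCN gene in glomeruli (green) and cortex (purple). Filled points passed an adjusted p of 0.05 in edgeR. Ccn1 lies at -0.81 in glomeruli and at 1.61 in cortex, and Ccn5 has no point in cortex because it did not pass the filter there.

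The diabetic effects in the 2 tissues were compared directly in 1 model of the 4 groups. For Ccn1 the effect in glomeruli minus that in cortex was -2.41 ± 0.24 on the log2 scale (edgeR adjusted p = 8.57e-06). For Ccn2 it was -0.78 ± 0.20 (edgeR adjusted p = 0.00957), the decrease being the larger one in glomeruli. For Ccn4 it was -1.08 ± 0.36 (edgeR adjusted p = 0.0354). The Ccn4 value was not called in 10 of 21 alternatives, 9 of which left out 1 sample (glomerular control 1, 2 or 3+4, glomerular diabetic 1+4 or 2, cortex control 2 or 4, cortex diabetic 2 or 3). For Ccn5 the model gave an edgeR adjusted p of 0.000501, but the gene passed the filter only through the glomerular samples and control cortex had no count. The size of its difference then depends on the prior count, and nothing is read from this value. Ccn3 did not pass (-0.91 ± 1.02, edgeR adjusted p = 0.530). Of all genes tested in this model 35.1% were called.

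Between tissues, the 3 abundant members were far higher in glomeruli. In control mice Ccn1 was 46.6-fold, Ccn2 54.3-fold and Ccn4 134-fold higher in glomeruli than in cortex (log2 5.54 ± 0.19, 5.76 ± 0.17 and 7.06 ± 0.31; edgeR adjusted p = 3.28e-11, 1.11e-11 and 2.66e-10). Of all genes tested 38.7% were called higher in control glomeruli. Smooth muscle markers were higher there too (9 of 10 called higher and 1 lower, median log2 4.28). So were podocyte markers (11 of 11, median 2.98) and immediate early genes (16 of 17, median 3.18). Fibroblast markers were mixed (3 higher and 4 lower), and proximal tubule markers were lower (9 of 9, median -8.69). The part of this makeup in the CCN levels was not tested. Ccn5 passed the filter of this model only through the glomerular samples and was at least 115-fold higher in control glomeruli against 3 counts over the control cortex group. Ccn3 did not pass (0.32 ± 0.71, edgeR adjusted p = 0.690). The tables were made separately, so levels between tissues can also differ through annotation and counting.

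In diabetic mice the distance between tissues was smaller for Ccn1, at 8.76-fold (log2 3.13 ± 0.17, edgeR adjusted p = 2.44e-09). It was 31.6-fold for Ccn2 (4.98 ± 0.16, edgeR adjusted p = 6.28e-11) and 63.4-fold for Ccn4 (5.99 ± 0.29, edgeR adjusted p = 1.34e-09). Of all genes 37.7% were called higher in diabetic glomeruli. Ccn5 (0.68 ± 0.59, edgeR adjusted p = 0.321) and Ccn3 (-0.59 ± 0.74, edgeR adjusted p = 0.482) did not pass.

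The makeup of CCN expression was described by shares of the summed FPKM in each library, without a test of the shares. Shares are tied, so a higher share of a member lowers the others. The close glomerular pairs were kept as separate libraries here. Ccn1 made up 21.8 to 29.4% of the summed CCN FPKM in control cortex libraries and 49.9 to 61.2% in diabetic ones, while the share of Ccn2 went from 69.2 to 76.9% down to 37.3 to 49.1%. In glomeruli Ccn1 held 17.4 to 19.1% in control and 18.9 to 24.7% in diabetic libraries, ranges that overlapped, while Ccn2 held 77.7 to 80.3% and 72.4 to 76.0%, which did not. The summed FPKM of the family was 3918 to 4253 in control and 1934 to 2277 in diabetic glomeruli, against 40.7 to 64.6 and 57.2 to 87.2 in cortex.

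The ratio of Ccn1 to Ccn2 within a sample does not depend on library scaling. In cortex it was 0.200 to 0.300 by CPM in the controls, against 0.717 to 1.16 in the diabetic libraries. The log2 ratio differed by 1.99 between groups (exact two-sided permutation test, p = 0.0286, the smallest that 4 against 4 allows; Benjamini-Hochberg adjusted 0.0571 over the 6 pairs of members). The ratios of Ccn1 to Ccn4 and of Ccn2 to Ccn4 gave the same p, with differences of 1.19 and -0.80. In glomeruli the Ccn1 to Ccn2 ratio was 0.183 to 0.207 in control and 0.210 to 0.288 in diabetic samples (exact permutation p = 0.1, the smallest that 3 against 3 allows).

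**Figure D3:**
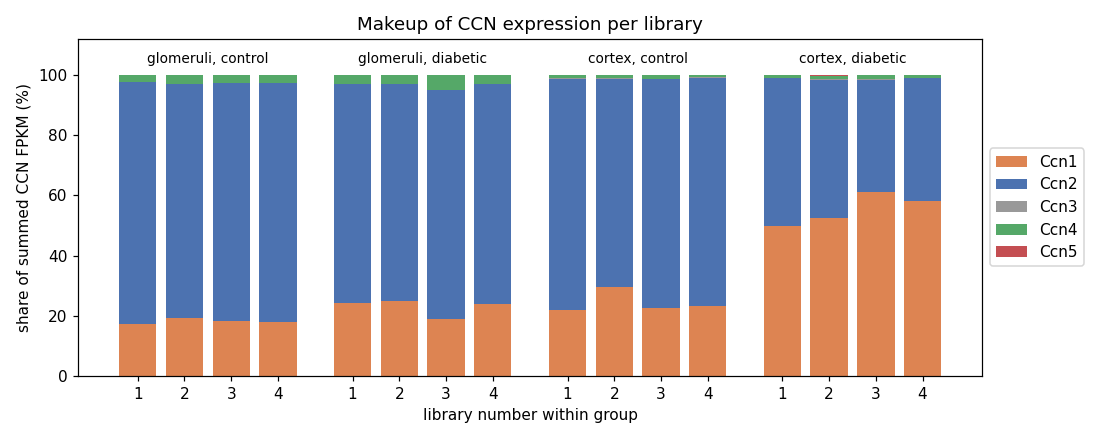
Share of each CCN gene in the summed CCN FPKM (vertical axis, %) of each of the 16 libraries, grouped by tissue and condition. Ccn1 (orange) makes up 21.8 to 29.4% of control cortex libraries but 49.9 to 61.2% of the diabetic ones, and Ccn2 (blue) holds most of the rest in every library.

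The genes around the CCN family were described by lists of known regulators and partners. Their counts stand beside 19.4% of all genes called higher and 18.2% lower in glomeruli, and 10.8% and 9.29% in cortex, and nothing is read from a share near these. Among 14 transcription regulators that act on CCN genes, 2 rose (14.3%) and 6 fell (42.9%) in diabetic glomeruli, with a median log2 fold change of -0.27 beside 0.01 for all genes. Smad3, a mediator of TGF-beta signals, rose from 124 ± 8.37 to 243 ± 20.1 CPM (log2 0.97 ± 0.10, edgeR adjusted p = 0.00101) and the TEAD family gene Tead2 rose as well (0.56 ± 0.09). Tead3 fell (-0.85 ± 0.09), as did Srf, which encodes serum response factor (-0.61 ± 0.09). With diabetic sample 2 as the only diabetic sample 3 rose and 2 fell, without diabetic sample 1+4 the number lower was 3, and with library totals 4 rose. In cortex 2 fell, Smad2 (-0.39 ± 0.06) and Smad4 (-0.22 ± 0.07), and 12 did not pass. Leaving out any of 7 of the 8 cortex libraries (all but diabetic 1) left 1 of these calls.

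Of 13 inducers of CCN2 and their receptors, 3 rose (23.1%) and 4 fell (30.8%) in glomeruli (median -0.34), the first share being near that of all genes. The ligand genes Tgfb2 and Tgfb3 fell (-1.38 ± 0.12 and -2.87 ± 0.30), Tgfb3 from 876 ± 5.61 to 120 ± 51.5 CPM, and so did the receptor genes F2r (-1.47 ± 0.19), for thrombin, and Lpar1 (-1.37 ± 0.26), for lysophosphatidic acid. The TGF-beta receptor genes Tgfbr2 (0.67 ± 0.12, edgeR adjusted p = 0.00616) and Tgfbr1 (0.56 ± 0.13) rose. The angiotensinogen gene Agt ranged from 0.134 to 0.317 CPM among controls, and diabetic samples 1+4, 2 and 3 had 4.97, 0.411 and 2.57 CPM (log2 3.51 ± 0.90, edgeR adjusted p = 0.0231), the same order as their proximal tubule marker sums (718, 58.8 and 351 CPM). The part of tubule transcripts in this rise was not tested. Agt was at 38.3 to 96.1 CPM in control cortex. The number higher was 1 without control sample 1, without diabetic sample 1+4 and with diabetic sample 2 alone. In cortex 2 rose (15.4%, beside 10.8% of all genes), Tgfb1 from 10.1 ± 1.24 to 15.9 ± 1.70 CPM (0.65 ± 0.11, edgeR adjusted p = 0.00401) and F2r (0.77 ± 0.18), and the angiotensin receptor gene Agtr1a fell (-0.34 ± 0.09). Agt did not pass (0.94 ± 0.30, edgeR adjusted p = 0.0616). The call of Agtr1a or of 1 of the 2 higher genes was lost without cortex control library 1, 2 or 3 or diabetic library 2, 3 or 4.

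Of 14 CCN receptors, 13 were tested in glomeruli, of which 1 rose and 4 fell (median -0.35). The laminin receptor gene Itga6 rose from 23.1 ± 3.28 to 120 ± 25.0 CPM (2.38 ± 0.19, edgeR adjusted p = 0.000558). Itgb5 (-0.83 ± 0.16), Itgb1 (-0.59 ± 0.15), the heparan sulfate proteoglycan gene Sdc4 (-0.53 ± 0.11) and Lrp1 (-1.51 ± 0.31) fell. In cortex 5 of 14 rose and 1 fell. Itgam and Itgb2, which encode the chains of the macrophage integrin that binds CCN1, rose by 2.57 ± 0.37 and 1.45 ± 0.22, beside the myeloid markers given above, a list that also holds Itgam. Sdc4 (0.49 ± 0.08), Itgb5 (0.38 ± 0.06) and Itgb3 (1.03 ± 0.28) rose in cortex too, and the Wnt co-receptor gene Lrp6 fell (-0.44 ± 0.08). With diabetic sample 2 alone 2 receptor genes fell in glomeruli. Leaving out glomerular control sample 2 or 3+4 gave 2 higher there, and leaving out cortex control library 2 gave 2 lower in cortex.

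Of 10 proteins that bind CCN factors, 1 rose and 5 fell at the transcript level in glomeruli (median -0.80). Bmp4 fell from 159 ± 41.7 to 14.7 ± 1.36 CPM (-3.44 ± 0.22, edgeR adjusted p = 0.000413), and the proteoglycan genes Dcn (-3.55 ± 0.28) and Bgn (-2.46 ± 0.24) and the decoy receptor gene Tnfrsf11b (-1.24 ± 0.24) fell too, as did Hspg2 (-0.59 ± 0.17), while the gap junction gene Gja1 rose (1.04 ± 0.21). In cortex Bmp4 rose (0.59 ± 0.14, edgeR adjusted p = 0.0173) and 9 did not pass, among them Bgn (0.40 ± 0.14), Fn1 (0.55 ± 0.23) and Dcn (-0.34 ± 0.18). The call of Bmp4 was lost without cortex diabetic library 3. Without control library 4 there were 2 higher, and with DESeq2 3. Without control library 2 there was 1 lower.

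The 20 other YAP and TAZ targets had a median of -0.55 in glomeruli, where 12 fell and 2 rose. Igfbp3 (-1.96 ± 0.12), Tgfb2 and the BMP regulator gene Crim1 (-1.57 ± 0.17) fell, and the tissue factor gene F3 (2.92 ± 0.32) and Myof (0.89 ± 0.14) rose. With diabetic sample 2 alone 4 fell and 2 rose. In cortex, where 19 were tested, 4 rose and 3 fell (median -0.09). F3 (0.86 ± 0.12) and Gadd45a (0.75 ± 0.13) rose, as did Ankrd1 (1.72 ± 0.48) and Myof (0.86 ± 0.23), and Lats2 (-0.39 ± 0.07), Igfbp3 (-0.71 ± 0.14) and Asap1 (-0.39 ± 0.12) fell. Leaving out cortex control library 1, 2 or 3 or diabetic library 2 gave 2 higher. Smooth muscle markers fell in diabetic glomeruli in 9 of 10 cases (summed level 18255 to 20750 CPM in control and 3688 to 6486 CPM in diabetic samples) and mesangial markers in 3 of 7 (Pdgfrb, Cspg4 and Serpine2; 1248 to 1373 and 640 to 717 CPM). Podocyte markers fell in 2 of 11 (Wt1 and Synpo). This share equals the 18.2% of all genes called lower in glomeruli, and nothing is read from it. Their summed level was 4777 to 5939 CPM in control samples and 4582, 4117 and 2296 CPM in diabetic samples 1+4, 2 and 3. Fibroblast markers fell in 3 of 5 tested, from a list of 7 (Dcn, Col1a2 and Col3a1; 6715 to 6839 CPM in control and 1361 to 4198 CPM in diabetic samples). Of 10 endothelial markers 0 were called (median -0.04, summed level 1394 to 2044 CPM in control and 1043 to 1759 CPM in diabetic samples). Of 10 myeloid markers 3 rose and 1 fell. None of these markers was at 0 in every sample of a group, and their part in the lower CCN levels was not tested.

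Immediate early genes were mostly higher in diabetic cortex, as Ccn1 was. Of 16 tested there, 15 rose (median 2.09) and Egr3 did not pass (-0.38 ± 0.48, edgeR adjusted p = 0.626). The nuclear receptor gene Nr4a1 rose from 9.32 ± 1.68 to 75.4 ± 25.9 CPM (3.02 ± 0.29, edgeR adjusted p = 0.000840), and Ier3 (1.30 ± 0.15), Btg2 (2.66 ± 0.29) and Klf6 (1.20 ± 0.16) rose as well. The count was 13 to 16 over all alternatives. In glomeruli 1 of 17 rose (Fosl1, 1.06 ± 0.33) and 4 fell, Fosl2 (-0.73 ± 0.13), Zfp36 (-0.73 ± 0.14), Egr1 (-0.79 ± 0.17) and Dusp1 (-0.67 ± 0.18), with a median of -0.19. Without diabetic sample 2 there were 7 lower, and with it alone 1. The call of Fosl1 was lost without control sample 1 or 3+4 or diabetic sample 1+4 or 2, and 2 were higher without control sample 2.

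**Figure D4:**
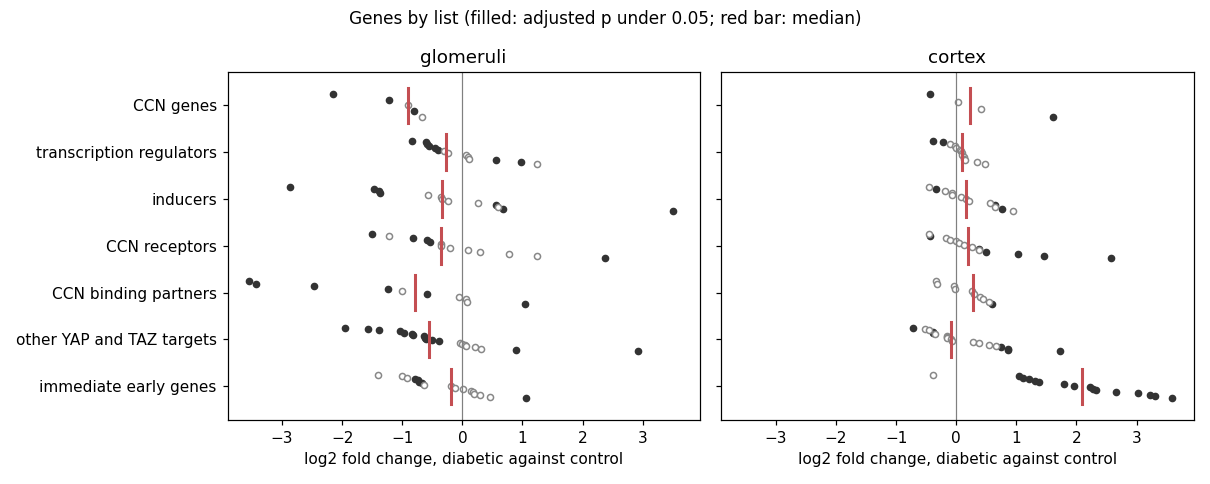
Log2 fold change of diabetic against control samples (horizontal axis) of the CCN genes and the genes of 6 lists in glomeruli (left) and cortex (right). Each point is 1 gene, filled where the edgeR adjusted p was under 0.05, and the red bar is the median. In cortex 15 of 16 immediate early genes lie to the right with a median of 2.09, while their median in glomeruli is -0.19. Tgfb2 stands in both the inducers and the other YAP and TAZ targets.

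The genes most like each member were found by Pearson correlation of log2 CPM over 14 samples, centred within each tissue, among 10904 other genes. The samples share the condition, the library and its depth, so the values describe likeness only and carry no test. A matching order of samples follows from this choice and adds nothing to it. For Ccn1 the 5 closest genes were Egr1 (r = 0.97), Ccdc9 (0.96), Rhbdf1 (0.95), Efhd2 (0.95) and Fos (0.95). Egr1, an immediate early transcription factor gene, was at 10.4, 8.01, 4.48 and 15.5 CPM in control cortex libraries 1 to 4 and at 54.3, 56.6, 154 and 92.8 CPM in diabetic libraries 1 to 4. As for Ccn1, diabetic libraries 3 and 4 were the highest and control library 3 the lowest. Within cortex alone r with Egr1 was 0.990 over 8 libraries, and within glomeruli 0.93 over 6 samples. For Ccdc9 these values were 0.993 and 0.80.

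For Ccn2 the closest genes were Pbx3 (r = 0.97), Speg (0.96), Sccpdh (0.95), Myom1 (0.95) and Lima1 (0.95). Speg and Myom1 encode proteins of striated or smooth muscle and Lima1 an actin-binding protein. Speg fell in glomeruli (-1.52 ± 0.14, edgeR adjusted p = 0.000796) and did not pass in cortex (-0.36 ± 0.13, edgeR adjusted p = 0.0669). For Ccn4 they were Pxdn (0.95), Col1a1 (0.94) and Numbl (0.94). Pxdn encodes peroxidasin, which cross-links basement membrane collagen, and Col1a1 a chain of type I collagen. In glomeruli Col1a1 reached 1466, 1872 and 1582 CPM in controls, against 552, 642 and 1935 CPM in diabetic samples 1+4, 2 and 3, so that diabetic sample 3 was again the high one, as for Ccn4. For Ccn3 the closest were Ripk1 (0.89), Ahi1 (0.81) and Zc3h7a (0.76), at counts too low to read a pattern.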

How the data were processed

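The authors deposited whole-number read counts per gene symbol for glomeruli and, for cortex, whole numbers per Ensembl identifier whose values look like rounded estimated counts (15 values above 0 had an FPKM of 0). The authors also deposited FPKM per gene, used for levels between genes and as an alternative. The submitters' processing notes name GRCm38 and mm10. No label or header names the aligner, counter or annotation. Gene names came from GENCODE release M21, which matched 20091 of 24722 glomerular symbols and 31953 of 34264 cortex identifiers, and 19047 genes joined both tables.

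Genes were tested with edgeR 4.0.16 in R 4.3.3 (filterByExpr, TMM, robust glmQLFit, glmQLFTest), with Benjamini-Hochberg adjustment over all genes and 0.05 as the threshold. Separate fits were made per tissue, and the difference of effects and the contrasts between tissues in 1 model on joined genes. Glomerular libraries whose chi-square per gene was below that of every other pair by a factor over 5 were summed. Alternatives used DESeq2 1.42.0, library totals, no filter, limma 3.58.1 on log2(FPKM + 1) and log2(FPKM + 0.1), separate libraries, a replicate block and left-out samples. The fit was tested on simulated data, and no conclusion here rests on that. Lists gave counts and medians. Named are the members, up to 4 genes per list and tissue with the smallest adjusted p, and the 5 (Ccn1, Ccn2) or 3 genes most correlated with a member, with prior count 2 and a mean log2 CPM of at least 3 in a tissue. Genes named outside this rule (Egr3, Fosl1 and others that complete a count) were chosen after their values were seen. Members and lists were chosen with earlier results of these data known. Depth limits the precision of Ccn3 and Ccn5.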

Additional observations from a re-analysis of the deposited data

Results flagged for a closer look

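The diabetic effect differed between glomeruli and cortex, by the test of the difference itself, for Ccn1 (-2.41 on the log2 scale, glomeruli minus cortex, edgeR), Ccn2 (-0.78) and Ccn4 (-1.08). Of all genes tested in this model 35.1% were called. The Ccn4 call is fragile: it was lost in 9 of 14 fits without 1 sample. Ccn4 passed in neither tissue alone (edgeR adjusted p = 0.0956 in glomeruli and 0.233 in cortex). Ccn1 was lower in 3 of 3 diabetic glomerular samples and higher in 4 of 4 diabetic cortex libraries than every control of the same tissue, beside 54.2% of all glomerular genes and 24.9% of all cortex genes whose groups did not overlap. For Ccn5 the same test gave an edgeR adjusted p of 0.000501, but it passed the filter on low counts only through the glomerular samples and control cortex had no count, so the size depends on the prior count and nothing is read from this value. No member had a cortex library far from the others of its group by Dixon's test for 4 samples, and groups of 3 were not tested.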

How the results depend on the processing

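Over 441 values of members under alternatives, 408 kept their direction and their side of the threshold (or stayed uncalled), 28 lost a call, 5 gained one and none of the called values reversed. With diabetic glomerular libraries 1, 3 and 4 left out, Ccn1 (-0.56) and Ccn5 (-3.33) lost their calls in glomeruli, Ccn4 gained one (-0.90), the difference of the Ccn2 effect between tissues (-0.77) was not called (for contrasts of both tissues this alternative was chosen after seeing the data), and 2293 rather than 5717 genes were called, an alternative with fewer samples. Ccn4 in glomeruli was also called with DESeq2 (-0.67) and with separate libraries (-0.75), and ranged from -1.01 to -0.45 when 1 sample was left out. Ccn5 in glomeruli ranged from -2.44 to -1.79 in that way. Ccn2 in cortex lost its call with library totals (-0.39), no filter (-0.43), log2(FPKM + 1) (-0.36) and log2(FPKM + 0.1) (-0.37), and ranged from -0.55 to -0.35 without 1 library. The difference of the Ccn4 effect between tissues was not called with library totals (-0.95). It ranged from -1.46 to -0.89 without 1 sample, and 9 of these 14 fits lost the call. The number of cortex genes called was 2528 to 4715 without 1 library, lowest without diabetic libraries 2 (2528), 3 (2538) or 4 (2542), against 3856. The cause of these changes was not tested. Library totals raised the share of higher calls from 51.6 to 72.6% in glomeruli, from 53.7 to 63.5% in cortex and from 53.7 to 69.0% for the difference between tissues, and FPKM to 64.4 to 71.5%.

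No sign was seen that the replicate numbers pair the samples, but 4 libraries per group cannot exclude a pairing. Same-numbered control and diabetic libraries had correlations of their deviations of -0.04 to 0.08 in glomeruli and -0.17 to 0.08 in cortex, and 1 and 0 of 4 libraries correlated best with their own number. Same-numbered glomerular and cortex libraries had correlations of -0.09 to 0.03 in control and -0.03 to 0.07 in diabetic mice. With the replicate block, Ccn4 in glomeruli was called (-0.82), Ccn2 in cortex was not (-0.41), 2375 cortex genes and 6992 glomerular genes were called, and no other call of a member changed.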
